A study of Mus musculus with 15 samples.

Results

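The TNF superfamily is a family of trimeric cytokines, most of them made as membrane proteins, and of the cell surface receptors that bind them. Members were chosen by gene symbol, taking counted genes named as Tnfsf ligands or Tnfrsf receptors, without names ending in os, together with Tnf, Lta, Ltb, Ltbr, Fasl, Cd27, Cd70 and Ngfr. A gene was kept when it had 10 or more reads in at least 3 of the 15 libraries. Of 38 symbols that matched, 32 met the minimum, 15 ligands and 17 receptors, of 50554 genes counted in all. The 6 symbols under the minimum were Fasl, Cd27, Ngfr, Tnfrsf17, Tnfrsf19 and Tnfrsf25. Fasl, Cd27, Tnfrsf17 and Tnfrsf19 each had at most 6 reads in any library, Ngfr at most 8, and Tnfrsf25 between 2 and 26. The kept genes Tnfrsf13c and Tnfsf11 did not meet the minimum on the US libraries alone, so their difference between treatments is in part built into the choice.

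Receptors of the family signal through TRAF adaptors to NF-kappa B and MAP kinases, and a subset with a death domain can also start apoptosis through caspase 8. In dendritic cells, which present antigen to T cells, ligands such as OX40L, CD30L, CD70 and the ligand of CD137 deliver costimulatory signals to T cells, while TNF acts on many cell types, including the dendritic cell that made it. Lipopolysaccharide (LPS), a component of the outer membrane of Gram-negative bacteria, is sensed through TLR4 and is a standard trigger of dendritic cell maturation.

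RNA sequencing measured read counts per gene in bone marrow-derived dendritic cells (BMDCs), cells grown from mouse marrow with the growth factor GM-CSF. All mice carried a tamoxifen-inducible CreERT2 recombinase and a floxed Mysm1 allele, which tamoxifen treatment removes. The other Mysm1 allele was wild type in the control genotype, Δ/+, and encoded a catalytically inactive protein in the other genotype, Δ/DN, so that both genotypes had lost 1 allele. MYSM1 is a chromatin-bound deubiquitinase of histone H2A. The marrow was collected over 12 weeks after the tamoxifen and grown for 9 days. The harvested cells were then kept for 18 h untreated (US) or with LPS at 10 ng/mL. The Δ/+ genotype gave 4 US and 3 LPS libraries and Δ/DN gave 4 of each, and the libraries carry a replicate number within each genotype. A US and an LPS library that share genotype and number are called a culture here, which gives 7 pairs and a single US library, although no source states that such a pair came from the same cells. A leading 2 or 3 in the library names, with no meaning stated, is called the library set. Set 3 holds Δ/+ culture 4 and Δ/DN cultures 3 and 4, and set enters the model as a term. Whether the cultures came from separate mice was not stated, so p-values measure the spread between these libraries, which may be partly technical. The letters that stand for mouse groups mean 1 genotype in the sample fields and the other in the series description. Genotypes are given here as on the samples, so each direction between genotypes depends on the sample fields being the correct source and is inverted otherwise.

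Libraries held from 37256651 to 104041282 reads. Total Mysm1 RNA does not separate a wild-type from an inactive allele, and it ranged from 46.3 to 54.1 CPM (the usual library-size-scaled read count, here with TMM factors) in Δ/+ US and from 28.1 to 48.9 CPM in Δ/DN US. The 7 conventional dendritic cell markers, among them Itgax, Flt3 and H2-Ab1, summed to between 1725 and 2230 CPM in US libraries, and the 7 macrophage markers to between 1509 and 1856 CPM. Single markers differed between genotypes without LPS. Of the dendritic cell markers 1 of 7 was called (14.3%), and of the macrophage markers 3 of 7 (42.9%), beside 10.5% of all genes. The dendritic cell marker was Ciita, higher in Δ/DN at a log2 difference of 1.36 ± 0.29 (adjusted p = 0.0162). Of the macrophage markers, C1qa at 0.94 (adjusted p = 0.0039) and C1qb at 0.60 (adjusted p = 0.0443) were higher and Cd68 at −0.37 (adjusted p = 0.0373) was lower. With LPS, Ciita at 1.65 (adjusted p = 0.0157), C1qa at 0.75 (adjusted p = 0.0161) and Cd68 at −0.47 (adjusted p = 0.0266) were called again, where 8.6% of all genes were called. The part of these markers in the genotype differences below was not tested. 2 Δ/DN cultures stood apart. Culture 3 had almost no Ddx3y, a Y-linked gene (1.94 CPM without LPS and 3.69 CPM with it, against at least 47.2 CPM in the libraries of Δ/DN cultures 1 and 2 and of all Δ/+ cultures), and its US library had 1258 CPM summed over 5 interferon-stimulated genes, against 209.5 to 278.2 CPM in the other Δ/DN US libraries and 77.29 to 491.1 CPM in Δ/+ US. Culture 3 also had almost no Xist, at 0.0 CPM without LPS and 0.014 CPM with it. Culture 4 had Xist at 1144 and 1166 CPM, against at most 0.0645 CPM in any other library, and Ddx3y at 0.0 CPM at both treatments. High Xist was thus seen in Δ/DN libraries only, and its part in the genotype differences was not tested. The labels give no sex. Culture 4 also had 656.5 and 743.6 CPM of 7 neutrophil markers, against at most 108.2 CPM elsewhere. In bulk RNA, fewer cells of a type and less RNA per cell cannot be told apart.

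LPS raised most ligands of the family and a smaller share of its receptors, in both genotypes. In Δ/+, 24 of the 32 members were called, that is, had an adjusted p under 0.05, 17 higher and 7 lower with LPS; over all 20865 genes tested, 47.7% were called, 22.4% higher and 25.3% lower. In Δ/DN, 25 members were called, 17 higher and 8 lower, where 48.2% of all genes were called, 23.1% higher and 25.1% lower. Among ligands 10 of 15 rose in each genotype, while 3 fell in Δ/+ and 4 in Δ/DN; among receptors 7 of 17 rose and 4 fell in each. The median log2 fold change of the 32 members was 0.72 in Δ/+ and 0.62 in Δ/DN, beside −0.08 and −0.09 over all genes. 16 members rose and 6 fell in both genotypes, 0 were called in opposite directions, and 5 (Ltb, Ltbr, Tnfrsf9, Tnfrsf23 and Tnfrsf26) were called in neither. In Δ/+, all LPS libraries were above all US libraries for 17 members and below them for 9, where 52.1% of all genes had no overlap; in Δ/DN the numbers were 14 and 6, and 40.9% of all genes. The family's reads shifted towards ligands. Summed ligand RNA was 130.6 to 269.8 CPM in the US libraries and 4578 to 7759 CPM in the LPS libraries, while summed receptor RNA was 843.1 to 1465 CPM and 2451 to 3164 CPM.

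Between genotypes the counts were smaller, and those without LPS lay mostly with receptors. Without LPS, 9 members were called, 4 higher and 5 lower in Δ/DN, where 10.5% of all genes were called, 5.01% higher and 5.45% lower. They were 8 receptors (Tnfrsf13b, Tnfrsf13c, Tnfrsf14 and Tnfrsf18 higher, Tnfrsf12a, Tnfrsf22, Tnfrsf23 and Tnfrsf26 lower) and the ligand Lta, which was lower. This count rests on a few libraries: it was 15 without Δ/DN culture 3, 4 when the model had no set term, and between 1 and 15 when 1 library at a time was left out. It was 1 without Δ/+ US library 4, 2 without Δ/DN US library 2 and 4 without Δ/+ US library 2. It was 5 without Δ/DN US library 4 and 15 without Δ/DN US library 3. Calls over all genes moved as well. In those fits, in the same order, they were 174, 350, 549, 882 and 3403, against 2184 with all libraries. They were 1270 with no set term and 3705 without Δ/DN culture 3. Within library set 2 alone, 8 members were called, 3 higher and 5 lower, where 1271 genes were called in all. The genotypes did not overlap for 5 members, 3 higher and 2 lower in Δ/DN, where 12.5% of all genes did not overlap. With LPS, 2 members were called, Ltb higher and Tnfrsf12a lower in Δ/DN, where 8.6% of all genes were called, 5.37% higher and 3.23% lower. That count was 0 without Δ/DN LPS library 2 or either of Δ/+ LPS libraries 1 and 2. It was 1 without Δ/DN LPS library 4, Δ/DN US library 2 or either of Δ/+ US libraries 3 and 4. Without Δ/DN LPS library 1 it was 4. Both calls could be lost by leaving out 1 library: that of Tnfrsf12a was kept in 12 of the 15 such fits and that of Ltb in 7. Over all genes the calls fell from 1795 to 184, 312 and 90 in the fits with a count of 0. They were 1077 to 1470 where the count was 1 and 1847 where it was 4. The genotypes did not overlap for 2 members that were higher and 4 that were lower in Δ/DN, where 24.6% of all genes did not overlap.

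For the difference between the genotypes' LPS effects, edgeR's quasi-likelihood test called 0 of 32 members and 1 of 20865 genes (0.00479%). Among the members the lowest adjusted p was 0.347, that of Tnfrsf14. DESeq2 also called 0 members, though it called 118 genes in all. A member called with LPS in 1 genotype and not in the other is therefore not shown to respond differently in them.

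**Figure D1:**
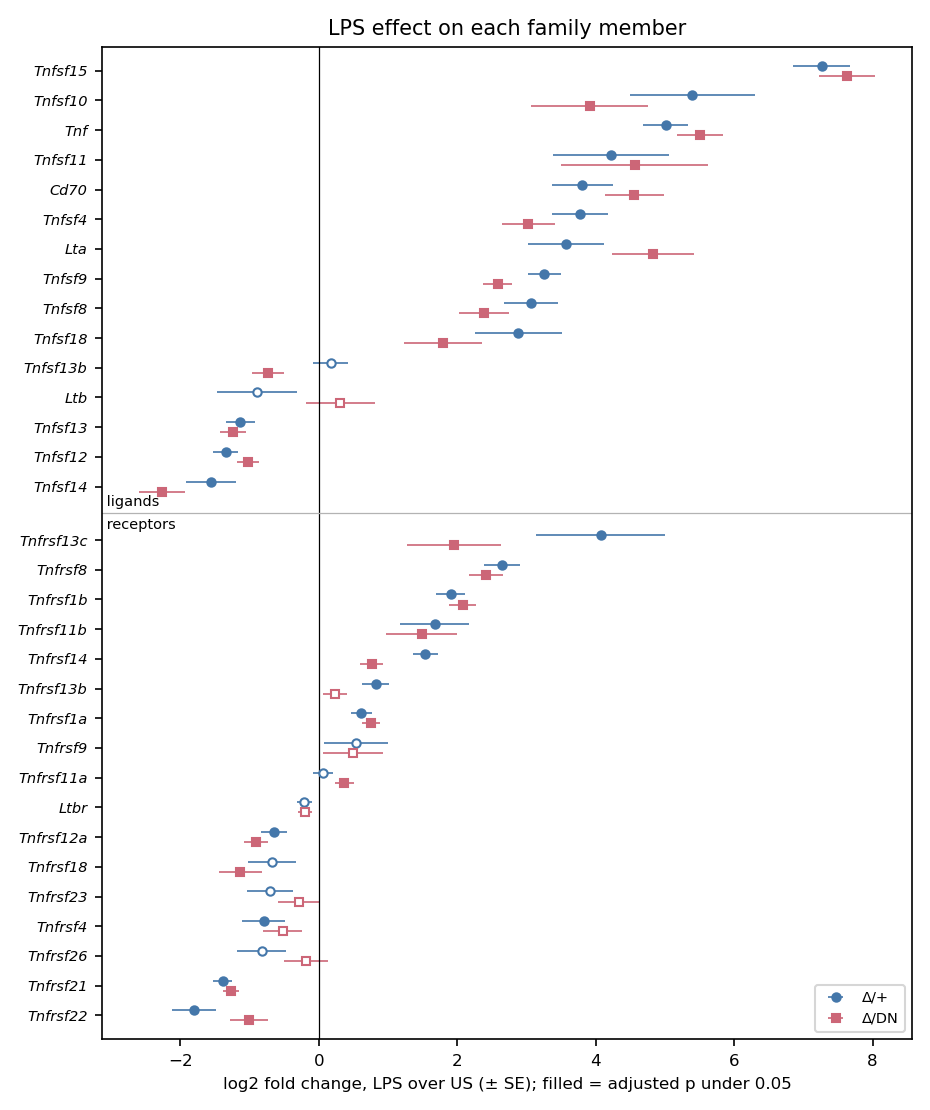
Log2 fold change of each of the 32 members with LPS, in Δ/+ (circles) and in Δ/DN (squares), with bars of ± 1 SE from the model and filled symbols where the adjusted p was under 0.05. The horizontal line separates the 15 ligands above from the 17 receptors below, and the ligand Tnfsf15 lies farthest to the right in both genotypes, followed in Δ/+ by Tnfsf10 and Tnf and in Δ/DN by Tnf and Lta.

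Tnf, Lta and Ltb lie side by side on chromosome 17 with no other coding gene between them in RefSeq, and they differed in their response to LPS. TNF is the founding cytokine of the family, lymphotoxin alpha binds the same receptors as a homotrimer, and lymphotoxin beta joins lymphotoxin alpha in a membrane trimer that acts on the receptor Ltbr. The 250 bases before the start sites of Tnf and Ltb are shown because the former rose strongly with LPS and the latter was called in neither genotype. They are RefSeq sequences of GRCm38.p6, written 5′ to 3′ on the strand of the gene, at chr17:35202008-35202257 on the minus strand for Tnf and chr17:35194257-35194506 on the plus strand for Ltb. Capitals mark a TATAAA match 29 to 24 bases before the Tnf start and a match, 87 to 78 bases before the Ltb start, to the kappa B letters (GGGA, any 4 bases, CC), read on either strand.
Tnf: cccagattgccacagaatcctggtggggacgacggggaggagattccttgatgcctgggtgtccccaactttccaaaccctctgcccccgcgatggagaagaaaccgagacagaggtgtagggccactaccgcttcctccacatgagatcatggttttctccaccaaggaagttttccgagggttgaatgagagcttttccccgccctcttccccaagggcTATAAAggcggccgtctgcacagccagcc
Ltb: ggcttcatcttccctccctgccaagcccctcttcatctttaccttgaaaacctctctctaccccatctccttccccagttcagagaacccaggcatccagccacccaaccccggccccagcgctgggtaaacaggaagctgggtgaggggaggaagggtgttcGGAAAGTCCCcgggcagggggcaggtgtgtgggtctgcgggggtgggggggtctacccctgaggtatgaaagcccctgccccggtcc

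Tnf measured 83.2, 82.7, 93.6 and 74.6 CPM in the Δ/+ US libraries, given in replicate order here and below, and 53.7, 43.3, 108 and 49.8 CPM in Δ/DN US. After LPS the levels were 2631, 1748 and 3553 CPM in Δ/+ and 3546, 2678, 2754 and 2482 CPM in Δ/DN. Every LPS library was above every US library, and the ratio between libraries of the same number ran from 21.1 to 66.0 over 7 pairs. The log2 fold change was 5.01 ± 0.33 (adjusted p = 5.1e-08) in Δ/+ and 5.51 ± 0.33 (adjusted p = 2.58e-08) in Δ/DN (edgeR). Without LPS, Δ/DN culture 3 was the highest of all 8 libraries and the 3 other Δ/DN libraries were the lowest. The genotype difference was −0.43 ± 0.29 (adjusted p = 0.374) with all libraries and −0.77 ± 0.20 (adjusted p = 0.0218) without that culture; the part played by its interferon-stimulated genes was not tested.

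Lta was low without LPS, at 0.785, 0.251, 1.34 and 0.431 CPM in Δ/+ and 0.303, 0.135, 0.0911 and 0.0576 CPM in Δ/DN. The groups overlapped, with 3 of the 4 Δ/DN libraries below every Δ/+ library. The log2 difference was −2.09 ± 0.60 (adjusted p = 0.0422), and the call was lost without either of Δ/DN cultures 3 (−2.11, adjusted p = 0.0675) and 4 (−1.95, adjusted p = 0.124), and in 10 of the 15 fits that left out 1 library. With LPS, Lta measured 5.28, 5.14 and 19.1 CPM in Δ/+ and 5.32, 5.4, 2.44 and 2.89 CPM in Δ/DN. Those levels lay above all US levels, and a Δ/+ library stood far above the rest. With LPS the log2 fold change was 3.57 ± 0.55 (adjusted p = 0.000112) in Δ/+, or 2.65 without that library, and 4.83 ± 0.59 (adjusted p = 1.72e-05) in Δ/DN.

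Ltb was called in neither genotype's LPS comparison and differed between genotypes with LPS. It measured 2.2, 0.811, 1.37 and 0.85 CPM in Δ/+ US and 1.7, 5.01, 0.95 and 2.56 CPM in Δ/DN US, with overlapping groups. Under LPS its levels were 0.75, 0.516 and 1.01 CPM in Δ/+ and 1.9, 4.6, 1.18 and 4.36 CPM in Δ/DN, where every Δ/DN library was above every Δ/+ library. The genotype difference with LPS was 2.31 ± 0.62 (adjusted p = 0.0396), kept in 7 of 15 fits that left out 1 library and lost with no filter on low counts (adjusted p = 0.106) and in the model that had no set term (1.98, adjusted p = 0.0599). Its LPS effect was −0.89 ± 0.58 (adjusted p = 0.232) in Δ/+ and 0.31 ± 0.49 (adjusted p = 0.645) in Δ/DN. Ltb is also made by lymphocytes. The 6 B cell and plasma cell markers summed to between 1.129 and 3.545 CPM in Δ/+ LPS and between 2.115 and 7.63 CPM in Δ/DN LPS, and the 8 T and NK cell markers to between 0.822 and 0.982 CPM in Δ/+ LPS and between 0.52 and 2.25 CPM in Δ/DN LPS, with Trac, Cd3g and Ncr1 under 10 reads in every library. Their part in the Ltb difference was not tested.

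Tnfsf15 had the largest LPS effect of the 32 members in both genotypes. It encodes TL1A, a T cell costimulator whose receptor gene Tnfrsf25 was among those under the minimum. It measured 25.6, 17.9, 21.4 and 12.8 CPM in Δ/+ US and 11.9, 9.42, 22.3 and 7.61 CPM in Δ/DN US, against 3062, 2678 and 3437 CPM in Δ/+ LPS and 3445, 2685, 2487 and 1778 CPM in Δ/DN LPS. Every LPS library was far above every US library, and the ratio between same-numbered libraries ran from 111.7 to 288.5. The change with LPS was 7.26 ± 0.41 (adjusted p = 1.99e-08) in Δ/+ and 7.63 ± 0.41 (adjusted p = 1.73e-08) in Δ/DN. Together Tnf and Tnfsf15 held 36.71% to 60.93% of the ligand reads of a US library and 87.08% to 93.07% of those of an LPS library. Per length of the gene, Tnfsf15 RNA stood at 0.0861 to 0.173 of the Tnf level without LPS and at 0.404 to 0.864 of it with LPS. These shares depend on the deposited gene lengths. Its promoter, chr4:63745060-63745309 on the minus strand of GRCm38.p6, is shown as that of the most LPS-responsive member; it held none of the 4 motifs searched and is therefore all in lower case.
Tnfsf15: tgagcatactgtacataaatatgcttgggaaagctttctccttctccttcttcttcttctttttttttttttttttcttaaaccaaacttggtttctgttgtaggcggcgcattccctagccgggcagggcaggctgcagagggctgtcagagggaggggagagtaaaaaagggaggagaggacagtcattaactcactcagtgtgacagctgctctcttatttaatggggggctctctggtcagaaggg

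Without LPS, the order of the Tnfsf15 libraries was much like that of the Tnf libraries. Δ/DN culture 3 lay within the Δ/+ range and the other 3 Δ/DN libraries lay below it. The genotype difference was −0.51 ± 0.33 (adjusted p = 0.362) with all libraries and −0.95 ± 0.15 (adjusted p = 0.00267) without culture 3. With LPS it was −0.14 ± 0.35 (adjusted p = 0.844).

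Tnfsf10 encodes TRAIL, a death ligand known to be induced by interferons. It measured 4.6, 2.54, 7.3 and 0.454 CPM in Δ/+ US and 3.45, 3.24, 23.3 and 4.63 CPM in Δ/DN US. The high value was the library of Δ/DN culture 3 and the low one that of Δ/+ culture 4, which also had the highest and lowest interferon-stimulated sums of the US libraries. With LPS it measured 144, 168 and 156 CPM in Δ/+ and 157, 108, 149 and 82.8 CPM in Δ/DN, all above the US libraries. The interferon-stimulated sums were 8473 to 10630 CPM in Δ/+ LPS and 3615 to 7473 CPM in Δ/DN LPS, without overlap, though none of the 5 genes was called between genotypes, and their part in the Tnfsf10 levels was not tested. Its log2 fold change with LPS was 5.40 ± 0.90 (adjusted p = 0.000388) in Δ/+ and 3.91 ± 0.84 (adjusted p = 0.00233) in Δ/DN, the ratios between same-numbered libraries ran from 6.40 to 66.0, and the genotype difference without LPS was 1.07 ± 0.93 (adjusted p = 0.523). Over the 15 fits that left out 1 library, the LPS effect ran from 3.45 to 5.09 in Δ/DN and from 5.01 to 6.03 in Δ/+. It was called in all of them, at adjusted p-values of at most 0.011 and 0.00202. The upper ends were those without the US library of Δ/DN culture 3 (adjusted p = 6.43e-05) and without Δ/+ US library 3.

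The 5 ligands Cd70, Tnfsf4, Tnfsf8, Tnfsf9 and Tnfsf18, each known to costimulate T cells, were called higher with LPS in both genotypes, whereas Tnfsf14, which also costimulates T cells and is described below, was lower. Cd70, the ligand of CD27, measured 0.436, 0.107, 0.222 and 0.0349 CPM in Δ/+ US and 0.194, 0.247, 0.169 and 0.115 CPM in Δ/DN US. Under LPS its levels were 3.31, 2.71 and 2.38 CPM in Δ/+ and 3.09, 5.98, 3.58 and 3.95 CPM in Δ/DN, so that the treatments did not overlap. The LPS effect was 3.81 ± 0.44 (adjusted p = 5.82e-06) in Δ/+ and 4.56 ± 0.43 (adjusted p = 8.73e-07) in Δ/DN. Tnfsf4 (OX40L) was 12.9 to 35.7 CPM in US libraries and 98.6 to 326.2 CPM in LPS libraries, with log2 effects of 3.77 ± 0.41 in Δ/+ and 3.03 ± 0.38 in Δ/DN. Tnfsf8 (CD30L) was 14.0 to 51.4 CPM and 102.4 to 324.6 CPM, with effects of 3.07 ± 0.39 and 2.39 ± 0.36. Tnfsf9, the ligand of CD137, was 1.64 to 3.13 CPM and 11.7 to 23.1 CPM, with effects of 3.26 ± 0.23 and 2.58 ± 0.21. All of these were higher with LPS in 7 of 7 same-numbered pairs, with adjusted p-values from 5.94e-08 to 0.000151. Tnfsf18, the ligand of GITR, was 0.026 to 0.51 CPM in US libraries and 0.385 to 1.38 CPM in LPS libraries. Its effect was 2.88 ± 0.63 (adjusted p = 0.0014) in Δ/+ and 1.79 ± 0.56 (adjusted p = 0.0162) in Δ/DN, the latter 1.37 (adjusted p = 0.0518) without culture 3 and 1.63 (adjusted p = 0.0642) without culture 4. None of these 5 ligands was called between genotypes.

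**Figure D2:**
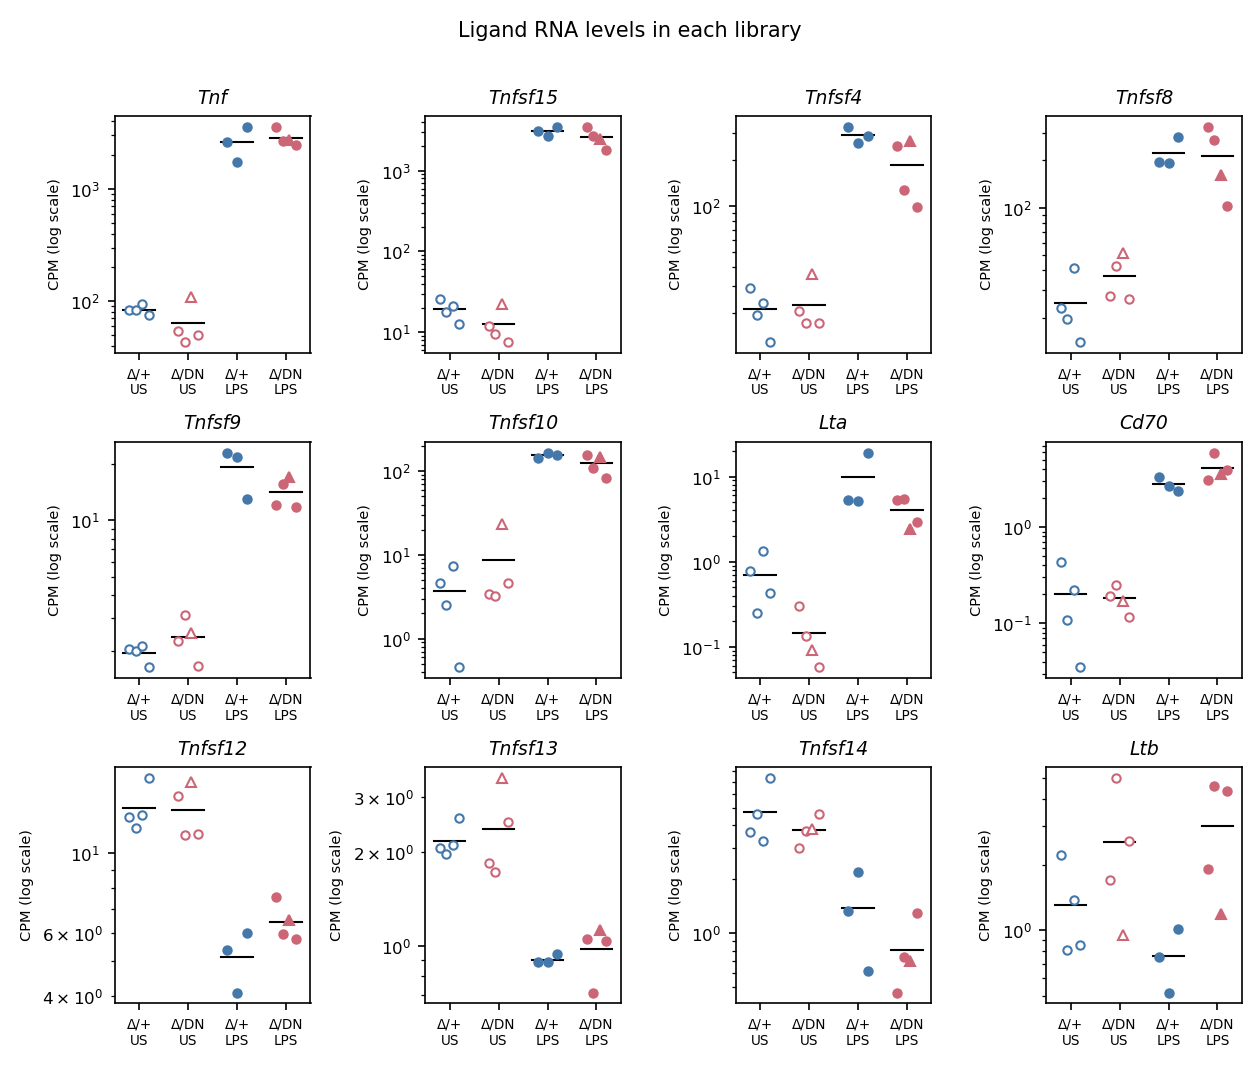
CPM on a logarithmic axis for 12 of the 15 ligands in each of the 15 libraries, by genotype and treatment, with open symbols for US, filled symbols for LPS, triangles for Δ/DN culture 3 and a bar at the group mean. Tnf, Tnfsf15 and the costimulatory ligands of the upper panels separate by treatment, while Tnfsf12, Tnfsf13 and Tnfsf14 are lower with LPS and Ltb overlaps.

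Tnfsf11 and its partners form the RANK axis, known for osteoclast formation and, in dendritic cells, for survival after contact with T cells. Tnfsf11 (RANKL) had 4, 4, 6 and 0 reads in Δ/+ US, 0, 2, 0 and 0 in Δ/DN US, 50, 79 and 50 in Δ/+ LPS and 2, 11, 25 and 10 in Δ/DN LPS. Nearly all its reads were in LPS libraries, and the 3 Δ/+ LPS libraries lay above all 4 Δ/DN LPS libraries in CPM. With LPS the log2 fold change was 4.22 ± 0.84 (adjusted p = 0.000682) in Δ/+ and 4.56 ± 1.07 (adjusted p = 0.0024) in Δ/DN, values that depend on the prior count since several US libraries had 0 reads; the latter ran from 3.90 to 6.71 when 1 library was left out, highest without Δ/DN US library 2, where all remaining Δ/DN US libraries had 0 reads. The genotype difference with LPS was −2.28 ± 0.99 (adjusted p = 0.163); it was called in library set 2 alone (−3.09, adjusted p = 0.0275) and without Δ/DN cultures 3 and 4 (−3.11, adjusted p = 0.0288).

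Tnfrsf11b encodes osteoprotegerin, the soluble decoy receptor of RANKL. It was 0.0698 to 0.786 CPM in US libraries, 1.03 to 2.21 CPM in Δ/+ LPS and 0.253 to 0.947 CPM in Δ/DN LPS, and the genotypes did not overlap with LPS. The change with LPS was 1.67 ± 0.50 (adjusted p = 0.0124) in Δ/+ and 1.48 ± 0.51 (adjusted p = 0.0258) in Δ/DN, the latter 1.31 (adjusted p = 0.0927) without Δ/DN culture 4, and the genotype difference with LPS was −1.21 ± 0.56 (adjusted p = 0.191). Stromal cells are a known source of both gene products. The 8 stromal and endothelial markers summed to between 16.53 and 20.04 CPM in Δ/+ US, 7.26 and 12.85 CPM in Δ/DN US, 27.02 and 36.53 CPM in Δ/+ LPS, and 12.89 and 20.77 CPM in Δ/DN LPS, without overlap between genotypes at either treatment. Lepr was the largest part of the sum in every US library, and it was lower in Δ/DN at −1.08 ± 0.21 (adjusted p = 0.00933) without LPS and −1.84 ± 0.24 (adjusted p = 0.0039) with LPS. The fibroblast collagen genes had the opposite sign without LPS, with Col1a2 called higher in Δ/DN at 2.48 ± 0.73 (adjusted p = 0.045), and Col1a1 at 1.22 (adjusted p = 0.445) and Col3a1 at 0.91 (adjusted p = 0.516) not called. Each of the 8 was detected, and their part in these differences was not tested.

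Tnfrsf11a, the receptor RANK itself, was steadier. It measured 75.8, 59.9, 61.3 and 48.1 CPM in Δ/+ US, 60.2, 62.8, 55.7 and 43.7 CPM in Δ/DN US, 78.2, 64.2 and 56.8 CPM in Δ/+ LPS and 65.6, 81.6, 77.9 and 60.0 CPM in Δ/DN LPS. All groups overlapped. Its log2 fold change with LPS was 0.37 ± 0.13 (adjusted p = 0.0319) in Δ/DN, lost in 5 of the 15 fits that left out 1 library and without culture 4 (0.34, adjusted p = 0.075), and it was 0.06 ± 0.14 (adjusted p = 0.767) in Δ/+.

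Tnfsf12, Tnfsf13 and Tnfsf14 fell with LPS in both genotypes. Tnfsf14 (LIGHT), which binds HVEM and Ltbr, measured 3.64, 4.63, 3.27 and 7.34 CPM in Δ/+ US and 2.97, 3.73, 3.81 and 4.59 CPM in Δ/DN US. After LPS the levels were 1.34, 2.19 and 0.615 CPM in Δ/+ and 0.467, 0.74, 0.702 and 1.3 CPM in Δ/DN. Every LPS library was below every US library. The effect was −1.57 ± 0.36 (adjusted p = 0.00214) in Δ/+ and −2.27 ± 0.33 (adjusted p = 5.02e-05) in Δ/DN. Tnfsf14 shares its stretch of chromosome 17 with Tnfsf9 and Cd70, no coding gene lying between them, and these neighbours rose with LPS while it fell.

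Tnfsf12 (TWEAK), the ligand of Fn14, measured 12.6, 11.8, 12.8 and 16.2 CPM in Δ/+ US, 14.5, 11.2, 15.8 and 11.3 CPM in Δ/DN US, 5.39, 4.1 and 5.98 CPM in Δ/+ LPS and 7.57, 5.95, 6.51 and 5.79 CPM in Δ/DN LPS. Tnfsf13 (APRIL), a survival factor of plasma cells, measured 2.05, 1.97, 2.1 and 2.56 CPM in Δ/+ US, 1.84, 1.72, 3.45 and 2.49 CPM in Δ/DN US, 0.886, 0.887 and 0.943 CPM in Δ/+ LPS and 1.05, 0.71, 1.12 and 1.04 CPM in Δ/DN LPS. Both were lower in all LPS libraries than in any US library. The effects of Tnfsf12 were −1.34 ± 0.18 (adjusted p = 2.02e-05) in Δ/+ and −1.03 ± 0.16 (adjusted p = 7.89e-05) in Δ/DN, and those of Tnfsf13 −1.14 ± 0.21 (adjusted p = 0.000418) and −1.24 ± 0.19 (adjusted p = 7.45e-05). The genes adjoin on chromosome 11, and as the use of strand in counting was not given, reads may have been shared between them and with overlapping transcripts, so the values are uncertain.

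Tnfsf13b encodes BAFF, the B cell survival factor that dendritic and other myeloid cells make. It measured 1.59, 1.26, 1.75 and 1.15 CPM in Δ/+ US and 1.98, 2.37, 1.81 and 2.06 CPM in Δ/DN US, and every Δ/DN library was above every Δ/+ library. The difference was 0.49 ± 0.24 (adjusted p = 0.21) and was not called. With LPS it measured 1.47, 1.71 and 1.6 CPM in Δ/+ and 0.918, 0.902, 1.7 and 1.45 CPM in Δ/DN, with overlap. The LPS effect was −0.74 ± 0.23 (adjusted p = 0.0171) in Δ/DN, kept in 12 of 15 fits that left out 1 library, and 0.17 ± 0.25 (adjusted p = 0.63) in Δ/+. The test of the difference between these effects gave −0.91 ± 0.35 (adjusted p = 0.442).

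The BAFF receptors Tnfrsf13b (TACI) and Tnfrsf13c were higher in Δ/DN without LPS. Tnfrsf13b measured 18.6, 17.7, 28.2 and 19.7 CPM in Δ/+ US and 30.8, 42.6, 27.7 and 43.4 CPM in Δ/DN US. A Δ/+ library reached just above the lowest Δ/DN library, and otherwise the groups were apart. The difference was 0.81 ± 0.18 (adjusted p = 0.0171), kept in 12 of 15 fits that left out 1 library, and 0.75 (adjusted p = 0.0847) in library set 2 alone. After LPS the levels were 36.3, 32.0 and 45.7 CPM in Δ/+ and 43.3, 47.8, 36.0 and 42.9 CPM in Δ/DN, overlapping, and the genotype difference was 0.22 ± 0.20 (adjusted p = 0.548). With LPS the log2 fold change was 0.82 ± 0.19 (adjusted p = 0.00286) in Δ/+ and 0.23 ± 0.18 (adjusted p = 0.307) in Δ/DN, and the test of their difference gave −0.59 ± 0.26 (adjusted p = 0.53).

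Tnfrsf13c, the BAFF receptor of B cells, was near the limit of detection. It had 0, 0, 2 and 4 reads in Δ/+ US and 8, 22, 2 and 24 in Δ/DN US, against 12, 25 and 22 in Δ/+ LPS and 10, 48, 42 and 90 in Δ/DN LPS. The genotype difference without LPS was 2.94 ± 0.89 (adjusted p = 0.0489), kept in 3 of 15 fits that left out 1 library, and its size depends on the prior count because 2 Δ/+ libraries had 0 reads. The change with LPS was 4.07 ± 0.93 (adjusted p = 0.00207) in Δ/+ and 1.95 ± 0.68 (adjusted p = 0.0273) in Δ/DN, the latter 1.65 (adjusted p = 0.052) without culture 3 and 1.95 (adjusted p = 0.0751) without culture 4. The B cell and plasma cell markers summed to between 0.871 and 4.015 CPM in Δ/+ US and between 0.937 and 5.66 CPM in Δ/DN US, overlapping. Their part in the result was not tested.

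Among receptors, Tnfrsf14 had the genotype difference without LPS that held in every fit that left out 1 library. It encodes HVEM, the receptor of LIGHT and, on dendritic cells, also a ligand of the inhibitory receptor BTLA. It measured 33.6, 36.8, 44.6 and 20.1 CPM in Δ/+ US and 54.3, 75.8, 65.4 and 56.7 CPM in Δ/DN US, and every Δ/DN library was above every Δ/+ library. The difference was 0.99 ± 0.18 (adjusted p = 0.00829), with adjusted p-values of 0.00345 to 0.0468 over the 15 fits. Under LPS its levels were 85.0, 106 and 113 CPM in Δ/+ and 108, 106, 107 and 106 CPM in Δ/DN, where the groups overlapped and the difference was 0.22 ± 0.20 (adjusted p = 0.546). LPS raised its log2 level by 1.54 ± 0.18 (adjusted p = 8.48e-06) in Δ/+ and 0.76 ± 0.17 (adjusted p = 0.00176) in Δ/DN. The difference between those effects was −0.78 ± 0.25 (adjusted p = 0.347), the lowest adjusted p of the 32 members for that test.

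The Tnfrsf14 promoter is shown as that of the receptor with this difference, at chr4:154928078-154928327 on the minus strand of GRCm38.p6. The capitals nearer the start mark a match, 64 to 55 bases before it, to the interferon response letters (GAAA, any 2 bases, GAAA) on the opposite strand, and the others a match to the kappa B letters 148 to 139 bases before it.
Tnfrsf14: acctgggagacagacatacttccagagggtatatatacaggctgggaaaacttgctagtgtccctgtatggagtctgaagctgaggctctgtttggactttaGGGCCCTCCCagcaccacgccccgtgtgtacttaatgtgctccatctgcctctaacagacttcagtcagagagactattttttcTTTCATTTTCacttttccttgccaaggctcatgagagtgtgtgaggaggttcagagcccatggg

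Tnfrsf18 and Tnfrsf4, the receptors GITR and OX40, are neighbours on chromosome 4 and best known on T cells. Tnfrsf18 measured 1.96, 1.18, 1.75 and 1.22 CPM in Δ/+ US and 2.78, 5.52, 2.06 and 2.99 CPM in Δ/DN US, without overlap. The difference was 1.18 ± 0.31 (adjusted p = 0.0296), kept in 11 of 15 fits that left out 1 library. With LPS it measured 1.13, 1.11 and 0.72 CPM in Δ/+ and 1.18, 1.41, 1.15 and 2.13 CPM in Δ/DN, again without overlap, and the difference of 0.73 ± 0.38 (adjusted p = 0.248) was not called. It was lower with LPS in 7 of 7 same-numbered pairs, at −1.14 ± 0.31 (adjusted p = 0.00698) in Δ/DN and −0.68 ± 0.35 (adjusted p = 0.123) in Δ/+. The T and NK cell markers summed to between 0.14 and 1.375 CPM in Δ/+ US and between 0.935 and 1.485 CPM in Δ/DN US, and their part in the difference was not tested. Tnfrsf4 measured 2.01, 2.31, 2.24 and 1.33 CPM in Δ/+ US and 2.2, 3.48, 1.03 and 2.33 CPM in Δ/DN US, then 1.45, 0.984 and 1.2 CPM in Δ/+ LPS and 1.18, 1.91, 1.24 and 1.74 CPM in Δ/DN LPS. All its groups overlapped. Its LPS effect was −0.80 ± 0.32 (adjusted p = 0.0489) in Δ/+, kept in 4 of 15 fits that left out 1 library, and −0.52 ± 0.28 (adjusted p = 0.147) in Δ/DN.

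**Figure D3:**
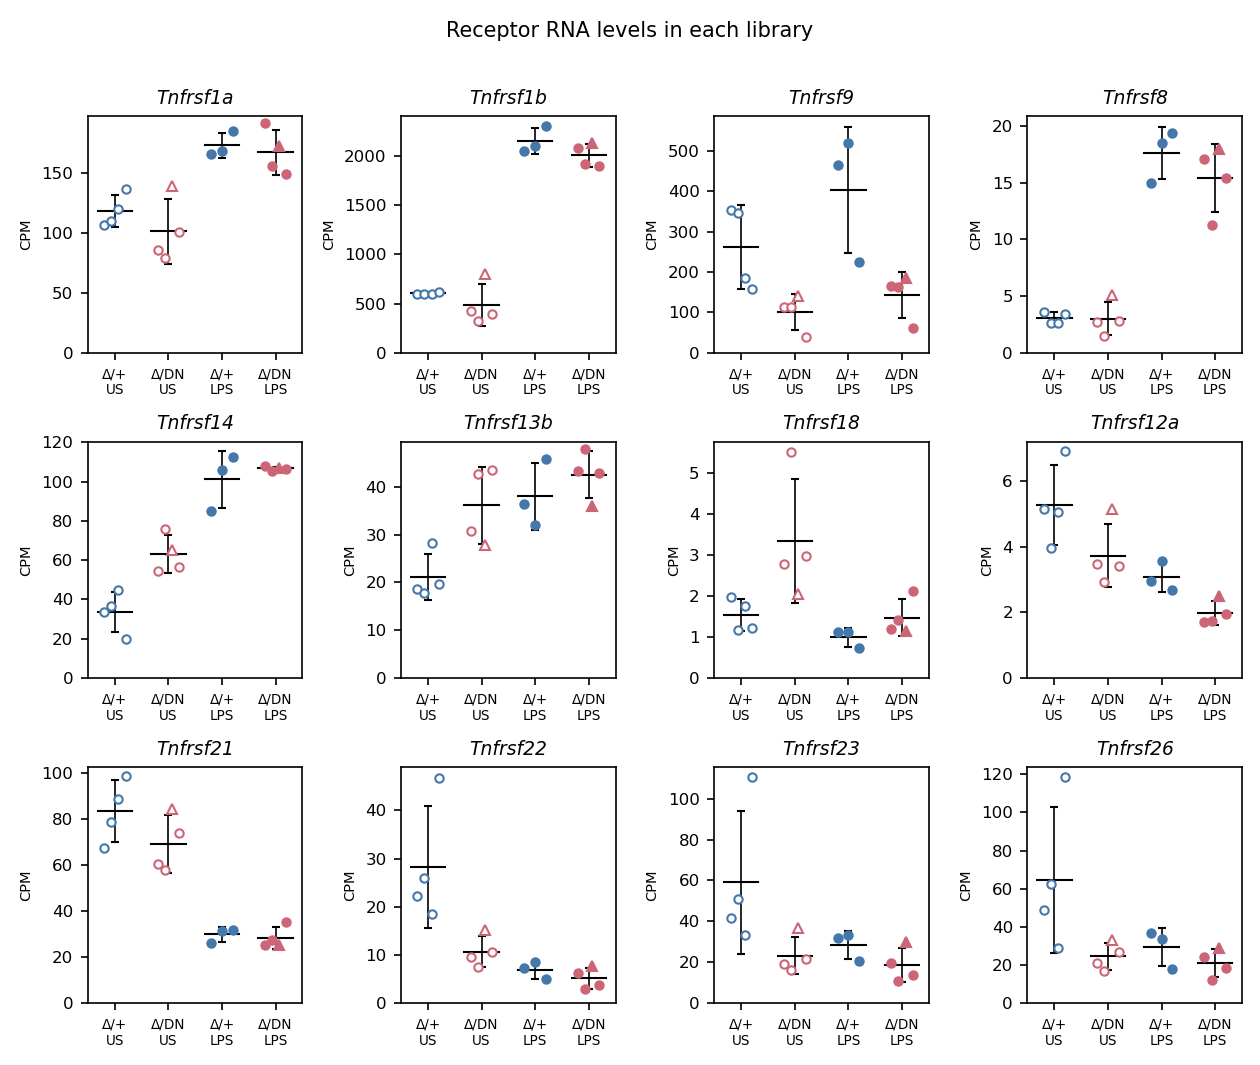
CPM on a linear axis from 0 for 12 of the 17 receptors in each library, by genotype and treatment, with the mean and SD of each group as bars, open symbols for US, filled symbols for LPS and triangles for Δ/DN culture 3. Tnfrsf1b and Tnfrsf8 separate by treatment, Tnfrsf9 by genotype, and Tnfrsf14 and Tnfrsf18 by genotype without LPS.

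The TNF receptors rose with LPS along with their ligand. Tnfrsf1b, which lacks a death domain and prefers membrane TNF, was 592.9 to 617.6 CPM in Δ/+ US, 322.1 to 799.4 CPM in Δ/DN US, 2058 to 2304 CPM in Δ/+ LPS and 1900.0 to 2136 CPM in Δ/DN LPS. It held 38.2% to 54.56% of the receptor reads without LPS and 66.39% to 77.53% with it. Its log2 fold change with LPS was 1.90 ± 0.21 (adjusted p = 3.48e-06) in Δ/+ and 2.07 ± 0.20 (adjusted p = 1.04e-06) in Δ/DN. Without LPS the genotype difference was −0.40 ± 0.20 (adjusted p = 0.22) with all libraries and −0.67 ± 0.10 (adjusted p = 0.00237) without Δ/DN culture 3, whose US library was the highest of the 8. Tnfrsf1a, the receptor with the death domain, was 79.0 to 139.5 CPM in US libraries and 149.4 to 191.7 CPM in LPS libraries, with LPS effects of 0.61 ± 0.15 (adjusted p = 0.00294) in Δ/+ and 0.75 ± 0.14 (adjusted p = 0.000324) in Δ/DN. Its genotype difference without LPS was −0.30 ± 0.14 (adjusted p = 0.193), and −0.45 ± 0.11 (adjusted p = 0.0164) without culture 3. Tnfrsf8 (CD30), the neighbour of Tnfrsf1b, was 1.51 to 5.05 CPM in US libraries and 11.2 to 19.3 CPM in LPS libraries, with effects of 2.65 ± 0.26 (adjusted p = 1.29e-06) and 2.41 ± 0.24 (adjusted p = 1.87e-06).

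Tnfrsf9, named after its values were seen, had genotypes that did not overlap at either treatment and yet missed the threshold. It encodes CD137, a costimulatory receptor that dendritic cells can also make. It measured 355, 347, 185 and 159 CPM in Δ/+ US and 114, 113, 141 and 37.8 CPM in Δ/DN US. Under LPS its levels were 464, 519 and 225 CPM in Δ/+ and 166, 162, 184 and 59.8 CPM in Δ/DN. Δ/DN was the lower genotype in each case, Δ/+ spread over a wide range, and Δ/DN culture 4 was the lowest at both treatments. The differences were −1.21 ± 0.45 (adjusted p = 0.11) without LPS and −1.25 ± 0.50 (adjusted p = 0.142) with LPS. Without Δ/DN culture 3 they were −1.60 ± 0.30 (adjusted p = 0.00764) and −1.36 ± 0.33 (adjusted p = 0.0224). LPS raised it in 7 of 7 same-numbered pairs by 1.22 to 1.58 times. That change was not called in the model, which has no culture term, at 0.53 ± 0.47 (adjusted p = 0.385) in Δ/+ and 0.49 ± 0.43 (adjusted p = 0.381) in Δ/DN.

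RefSeq lists 2 start sites for Tnfrsf9. The 250 bases before the downstream start, chr4:150927749-150927998 on the plus strand of GRCm38.p6, hold in capitals a kappa B match 42 to 33 bases and an AP-1 match (TGANTCA) 15 to 9 bases before the start, and those before the other start hold none of the 4 motifs. Reads per gene do not tell the start sites apart.
Tnfrsf9: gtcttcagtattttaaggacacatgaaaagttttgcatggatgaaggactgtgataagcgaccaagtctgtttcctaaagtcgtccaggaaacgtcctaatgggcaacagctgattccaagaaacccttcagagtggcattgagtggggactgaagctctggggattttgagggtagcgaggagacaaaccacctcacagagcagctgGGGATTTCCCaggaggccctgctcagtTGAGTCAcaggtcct

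The receptors Tnfrsf22, Tnfrsf23 and Tnfrsf26 lie side by side on chromosome 7, and all were lower in Δ/DN without LPS. In the mouse, Tnfrsf22 and Tnfrsf23 are decoy receptors for TRAIL. Tnfrsf22 measured 22.1, 25.9, 18.5 and 46.7 CPM in Δ/+ US and 9.5, 7.48, 15.1 and 10.6 CPM in Δ/DN US, where all Δ/DN libraries were below all Δ/+ libraries. Tnfrsf23 measured 41.7, 50.8, 33.4 and 110.4 CPM in Δ/+ US and 19.0, 16.1, 36.6 and 21.7 CPM in Δ/DN US, and Tnfrsf26 48.8, 62.4, 28.8 and 118 CPM in Δ/+ US and 21.1, 17.1, 33.3 and 26.9 CPM in Δ/DN US. For these, Δ/DN culture 3 reached into the Δ/+ range, and for all 3 genes Δ/+ culture 4, the Δ/+ library of library set 3, was the highest. The log2 differences were −1.53 ± 0.28 (adjusted p = 0.00903) for Tnfrsf22, −1.47 ± 0.30 (adjusted p = 0.0137) for Tnfrsf23 and −1.51 ± 0.32 (adjusted p = 0.0168) for Tnfrsf26. They were kept in 14, 13 and 12 of the 15 fits that left out 1 library, and all 3 calls were lost without Δ/+ US library 4, the highest adjusted p-values over the 15 fits being 0.0688, 0.0942 and 0.113. With no set term the calls of Tnfrsf23 (adjusted p = 0.0682) and Tnfrsf26 (adjusted p = 0.0582) were lost. That of Tnfrsf26 was also lost in library set 2 alone (adjusted p = 0.124) and without Δ/DN cultures 3 and 4 (adjusted p = 0.129). These genes are paralogs that may share reads, so how the signal divides among them is uncertain.

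With LPS the same 3 genes measured 7.24, 8.46 and 4.95 CPM (Tnfrsf22), 31.8, 33.3 and 20.9 CPM (Tnfrsf23) and 36.7, 33.9 and 18.1 CPM (Tnfrsf26) in Δ/+. In Δ/DN they measured 6.29, 2.97, 7.74 and 3.86 CPM, 19.8, 11.1, 29.8 and 13.8 CPM and 24.3, 12.3, 29.0 and 18.5 CPM. The genotypes overlapped for each, and the differences of −0.73 ± 0.32, −1.06 ± 0.33 and −0.87 ± 0.36 were not called (adjusted p = 0.168, 0.0671 and 0.149). That of Tnfrsf23 was called with DESeq2 (−1.06, adjusted p = 0.0145) and without Δ/DN culture 4 (−0.96, adjusted p = 0.0346). Tnfrsf22 fell with LPS, with log2 changes of −1.81 ± 0.32 (adjusted p = 0.000325) in Δ/+ and −1.01 ± 0.28 (adjusted p = 0.00838) in Δ/DN, in 7 of 7 same-numbered pairs. The latter was −0.87 (adjusted p = 0.0713) without Δ/DN cultures 3 and 4. Tnfrsf23 and Tnfrsf26 were each lower with LPS in 6 of 7 same-numbered pairs and were not called in the main fit. In Δ/+, Tnfrsf23 was called without Δ/DN culture 4 (−0.61, adjusted p = 0.0443). There Tnfrsf26 was called with DESeq2 (−0.78, adjusted p = 0.0395) and with no set term (−1.13, adjusted p = 0.0497). It was also called in 1 of the 15 fits that left out 1 library. Calls with a replicate block are given further below.

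Tnfrsf12a was called between genotypes at both treatments. It encodes Fn14, the receptor of TWEAK. It measured 5.15, 3.96, 5.06 and 6.94 CPM in Δ/+ US and 3.47, 2.91, 5.14 and 3.4 CPM in Δ/DN US, overlapping through Δ/DN culture 3, and 2.94, 3.58 and 2.68 CPM in Δ/+ LPS and 1.7, 1.75, 2.5 and 1.95 CPM in Δ/DN LPS, where Δ/DN lay below Δ/+ throughout. The differences were −0.61 ± 0.17 (adjusted p = 0.0388) without LPS and −0.87 ± 0.20 (adjusted p = 0.0209) with it, kept in 7 and 12 of 15 fits that left out 1 library. Both calls were lost with no set term (−0.50, adjusted p = 0.168, and −0.63, adjusted p = 0.107). The call without LPS was also lost with no filter on low counts (adjusted p = 0.0692), in library set 2 alone (adjusted p = 0.121) and without Δ/DN culture 4 (adjusted p = 0.0648). LPS lowered Tnfrsf12a in 7 of 7 same-numbered pairs, at −0.65 ± 0.19 (adjusted p = 0.01) in Δ/+ and −0.91 ± 0.17 (adjusted p = 0.000455) in Δ/DN. Its ligand Tnfsf12 also fell with LPS but was not called between genotypes.

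Tnfrsf21 encodes DR6, a death domain receptor. It measured 67.5, 78.7, 88.7 and 98.9 CPM in Δ/+ US, 60.5, 57.8, 84.5 and 74.2 CPM in Δ/DN US, 26.2, 31.6 and 32.0 CPM in Δ/+ LPS and 25.3, 27.5, 25.2 and 35.6 CPM in Δ/DN LPS. All LPS libraries were below all US libraries. The LPS effect was −1.39 ± 0.13 (adjusted p = 8.41e-07) in Δ/+ and −1.27 ± 0.12 (adjusted p = 7.18e-07) in Δ/DN. The genotype difference without LPS was −0.36 ± 0.12 (adjusted p = 0.0694), and −0.43 ± 0.10 (adjusted p = 0.013) without Δ/DN culture 3. Ltbr, the receptor of the lymphotoxin trimer and of LIGHT, stayed between 30.9 and 54.9 CPM in all 15 libraries, and its LPS effects of −0.21 ± 0.11 in Δ/+ and −0.20 ± 0.10 in Δ/DN were not called (adjusted p = 0.135 and 0.106). Its genotype difference without LPS was −0.23 ± 0.10 (adjusted p = 0.166), and −0.34 ± 0.08 (adjusted p = 0.0168) without culture 3.

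**Figure D4:**
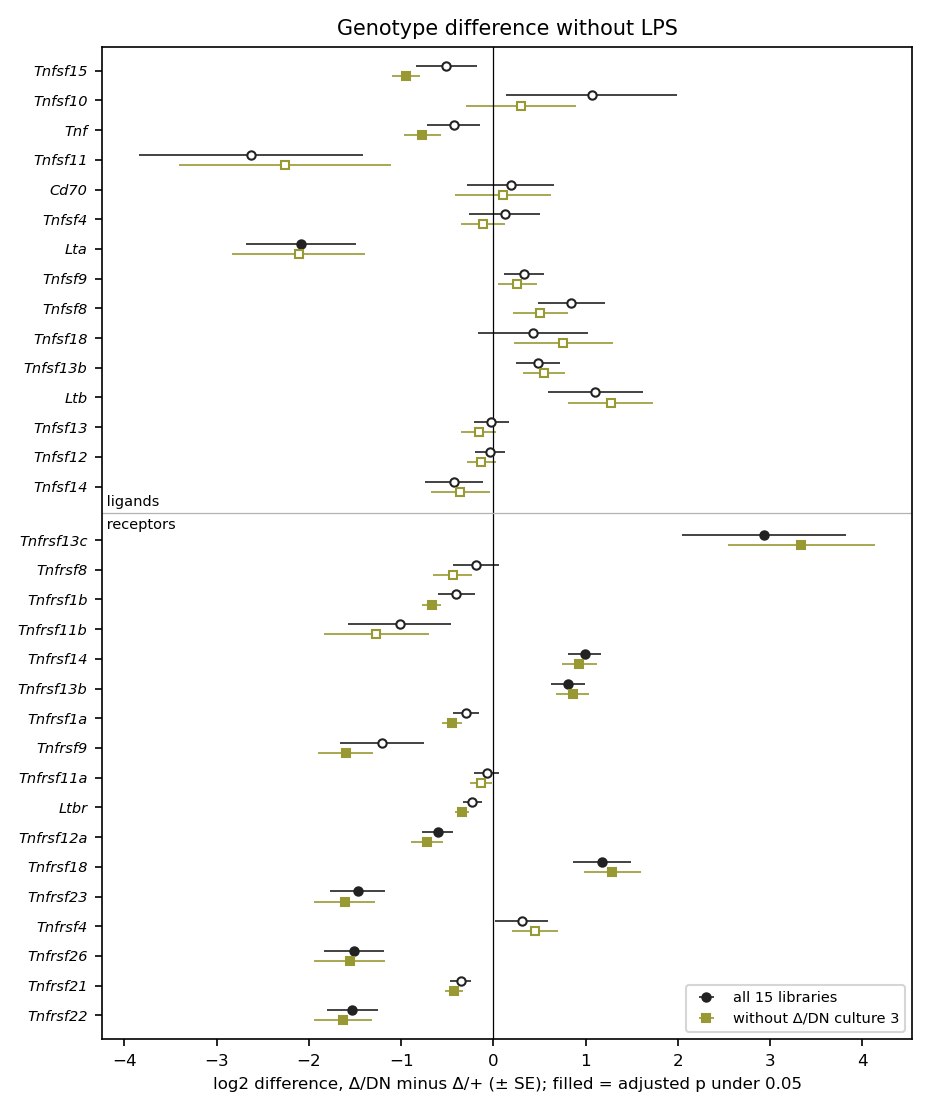
Log2 difference of each member between Δ/DN and Δ/+ without LPS, with all 15 libraries (circles) and without the pair of libraries of Δ/DN culture 3 (squares), with bars of ± 1 SE and filled symbols where the adjusted p was under 0.05. The count called was 9 with all libraries and 15 without that culture, with Tnf, Tnfsf15, Tnfrsf1a, Tnfrsf1b, Tnfrsf9, Tnfrsf21 and Ltbr filled only in the latter and Lta only in the former.

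Leaving out Δ/DN culture 3 thus moved 7 members to a call without LPS, all lower in Δ/DN, and lost the call of Lta. The members gained were Tnf, Tnfsf15, Tnfrsf1a, Tnfrsf1b, Tnfrsf9, Tnfrsf21 and Ltbr. Over all genes the number called rose from 2184 to 3705 when it was left out. With LPS, 3 members were called without that culture, Tnfrsf9 in addition to Ltb and Tnfrsf12a, while calls over all genes rose from 1795 to 2878.

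Levels were compared between genes per kilobase of the deposited gene length, as RPKM. Those lengths ran from 842 bases for Cd70 to 25198 for Tnfrsf14, and the annotation behind them is not given. The order of genes below depends on them. Without LPS the highest receptor was Tnfrsf1b, at a mean of 78.0 RPKM in Δ/+ and 63.0 in Δ/DN, followed by Tnfrsf1a at 55.0 and 47.1; the 2 did not overlap in Δ/+ and did in Δ/DN. In Δ/+ US the third was Tnfrsf9 at 31.1 RPKM, which overlapped with Tnfrsf21 at 23.0, and in Δ/DN US the order of those was turned, with Tnfrsf21 at 19.1 and Tnfrsf9 at 12.1, again overlapping. Among ligands Tnf led at 25.6 RPKM in Δ/+ US and 19.6 in Δ/DN US, then came Tnfsf4 at 13.1 and 14.1 and Tnfsf12 at 7.88 and 7.79. Tnf and Tnfsf4 overlapped in Δ/DN US and not in Δ/+ US, and Tnfsf4 and Tnfsf12 overlapped in Δ/+ US and not in Δ/DN US. With LPS the ligand order was Tnf at 811.5 and 879.4 RPKM, Tnfsf15 at 529.5 and 449.9, and Tnfsf4 at 180.0 and 114.9. Tnf and Tnfsf15 overlapped in Δ/+ LPS and not in Δ/DN LPS. Tnfrsf1b, at 279.1 and 260.1 RPKM, was above Tnfrsf1a, at 80.5 and 77.8, without overlap in either genotype.

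Of the 32 genes listed for signalling below these receptors, 23 rose and 2 fell with LPS in Δ/+, and 23 rose and 3 fell in Δ/DN. The share called was thus 78.1% and 81.2%, beside 47.7% and 48.2% of all genes. The smallest p-values in Δ/+ were those of Tnfaip3 (A20), a brake on NF-kappa B, with a log2 fold change of 3.84 ± 0.25, of Cflar, an inhibitor of caspase 8, with 3.36 ± 0.22, and of Tank and Tab2 with 1.96 ± 0.13 and 1.73 ± 0.12. In Δ/DN they were those of Tnip1, a partner of A20, with 1.76 ± 0.10, Tank with 2.06 ± 0.12, Cflar with 3.26 ± 0.21 and Birc3 with 1.72 ± 0.12. All 8 of these adjusted p-values lay between 1.57e-08 and 4.4e-08. Between genotypes without LPS, 1 of the 32 was higher and 5 were lower in Δ/DN, or 18.8% beside 10.5% of all genes, and with LPS 1 was higher and 3 were lower, or 12.5% beside 8.6%. The 4 with the smallest p-values were Ikbkg (NEMO), the regulatory subunit of the IKK complex, at −0.82 ± 0.11 (adjusted p = 0.00254), the kinase genes Map3k5 at −0.58 ± 0.14 (adjusted p = 0.0204) and Map3k7 at −0.24 ± 0.07 (adjusted p = 0.0348), and Tab3 at −0.30 ± 0.09 (adjusted p = 0.0423). The US library of Δ/DN culture 3 reached into the Δ/+ range for Ikbkg (97.35 CPM, against 96.98 CPM in Δ/+ US library 3) and not for the others. With LPS, Map3k14 (NIK), the kinase of the noncanonical NF-kappa B pathway, was higher at 0.85 ± 0.19 (adjusted p = 0.0202), while Map3k5 at −1.19 ± 0.15 (adjusted p = 0.0039), Tab2 at −0.45 ± 0.12 (adjusted p = 0.0387) and Tnfaip3 at −0.88 ± 0.25 (adjusted p = 0.0426) were lower. Genotype calls of genes outside the 32 members were not followed in the alternative fits. In those, calls over all genes with LPS fell as low as 90, so such calls may not hold.

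The sheddases and their partners release TNF and other members from the membrane. Adam17, the TNF-converting enzyme, rose with LPS by 1.01 ± 0.17 in Δ/+ and 1.13 ± 0.16 in Δ/DN, and Rhbdf2, which carries it to the surface, by 1.84 ± 0.17 and 1.83 ± 0.16. Adam10 fell, with log2 changes of −0.81 ± 0.10 and −0.42 ± 0.09 (adjusted p at most 0.00174 for these 6 values), and without LPS it was lower in Δ/DN at −0.38 ± 0.09 (adjusted p = 0.0249). Of 7 superfamily genes whose symbols lie outside the rule, 4 were tested, Cd40lg, Eda and Edar having under 10 reads in every library. Cd40, the receptor through which T cells license dendritic cells, was 3.33 to 39.3 CPM in US libraries and 499.2 to 886.5 CPM in LPS libraries, a log2 change of 6.01 ± 0.68 in Δ/+ and 5.30 ± 0.65 in Δ/DN. Eda2r and Fas also rose and Relt fell in both genotypes. Relt was higher in Δ/DN with LPS, at 1.01 ± 0.18 (adjusted p = 0.00925).

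RefSeq promoters were found for 25 of the 32 members, and in the 250 bases before their starts both strands were searched for 4 motifs. The kappa B letters were present for 7 members (28.0%), against 17.63% of 32851 promoters of that length, and the 7 were Ltb, Tnfsf11, Tnfsf14, Tnfrsf8, Tnfrsf9, Tnfrsf13b and Tnfrsf14. The interferon response letters were present for 3 (12.0%, against 2.977%), Tnfsf13b, Tnfrsf1b and Tnfrsf14. The AP-1 letters TGANTCA were present for 5 (20.0%, against 6.749%) and TATAAA for 5 (20.0%, against 12.37%). Tnfrsf9 and Tnfsf13b have 2 listed starts each, and a match before either start counts for the member. A match is a run of letters in this window and shows no binding.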

How the data were processed

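The authors deposited 1 table of raw read counts per gene for each of the 15 libraries, per the file headers, with a gene length that was the same in every table. Tools listed in the submitters' processing notes are HISAT2 2.2.1, Trimmomatic 0.33, FastQC, bedtools, featureCounts and edgeR, with GRCm39 (mm39) as the build. Their roles, the annotation and the use of strand are not given in the sources used here. Libraries held from 37256651 to 104041282 reads. Genes with 2 reads outnumbered those with 1 or with 3 in most libraries, and the reason was not tested. As reads carry no molecular identifiers, several may come from 1 molecule, and low counts may be less precise than they look.

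The count tables were fitted whole with edgeR 4.0.16 (limma 3.58.1, R 4.3.3): TMM factors, filterByExpr with a minimum count of 10, a robust quasi-likelihood fit of 4 groups with library set as an additive term, and Benjamini-Hochberg adjustment over the 20865 genes tested. All 32 members passed that filter. This test gave all adjusted p-values for which no other tool is named, except those between genotypes with a replicate block. Those came from limma voom. A gene was called at an adjusted p under 0.05. Log2 values are given ± SE. CPM are counts scaled by the TMM-adjusted library total, and RPKM are CPM per kilobase of the deposited length. Sums over marker lists are sums of CPM. Simulated counts checked the fit.

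Values in every library are given for members called between genotypes, for the 6 largest and 6 smallest LPS effects among called members, and for members called with LPS in 1 genotype only. Of the signalling list and the genes outside the rule, the 4 smallest p-values per comparison are named. The members and the lists were chosen with earlier results of these data known, and the interferon-stimulated list (Isg15, Ifit1, Ifit3, Mx1 and Oasl2) was added after the data were seen. Alternatives were RLE factors, DESeq2 1.42.0, no filter, no set term, set 2 alone, leaving out Δ/DN culture 3, 4 or both, a replicate block for culture, and leaving out each of the 15 libraries. For LPS effects the block was fitted in edgeR, with culture terms in place of the set term. For genotype differences it was fitted in limma voom, with the set term and a correlation within culture. Promoters and gene order came from RefSeq tables of GRCm38.p6 and were matched by symbol, so promoter positions are in that build and not in GRCm39. Not every superfamily gene is analysed here.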

Additional observations from a re-analysis of the deposited data

Results flagged for a closer look

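In the 96 groups of 4 libraries tested (32 members in 3 groups), the highest or lowest library was checked for a gap to the next that exceeded Dixon's 95% critical share of the group's range. Chance alone gives about 1 in 20 such groups, or 4.8 of 96, and 3 were found, so the number is no more than chance gives. 2 of the 3 were in the US library of Δ/DN culture 3. Tnf was 108.5 CPM there (8338 reads) with the next Δ/DN US library at 53.71 CPM. Tnfsf10 was 23.28 CPM there (1790 reads) with the next at 4.63 CPM. That library also had 1258 CPM of the 5 interferon-stimulated genes, and the relation was not tested. Tnfsf11 was 0.0225 CPM in the US library of Δ/DN culture 2, which is 2 reads where the other 3 Δ/DN US libraries had 0.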

How the results depend on the processing

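The count of members called between genotypes without LPS was 9, and it was 4 with no library set term and 15 without Δ/DN culture 3. Over all genes the calls in those fits were 2184, 1270 and 3705. With RLE factors, DESeq2, no filter, set 2 alone, without Δ/DN culture 4 or without both cultures the count of members was 6 to 10. In these fits 1271 to 3460 genes were called in all. Leaving out 1 library gave 1 to 15 members, with 174 to 3403 genes called in all. With LPS the count was 2. It was 4 with DESeq2, 1 with no filter, 0 with no library set term and 4 with the replicate block (limma voom). Over all genes the calls in those fits were 3017, 1498, 1456 and 2014, against 1795 in the main fit. Leaving out 1 library gave 0 to 4 members, with 90 to 2233 genes called in all. The counts of 24 and 25 members called with LPS in Δ/+ and Δ/DN ran from 21 to 25 in each genotype when 1 library was left out. Over all genes the calls ran from 8742 to 10176 in Δ/+ and from 8955 to 10170 in Δ/DN. The count for the difference of LPS effects was 0 in every fit run, with 0 to 156 genes called in all. Of the 3840 refits of single members, 3665 kept their side of the threshold, 126 lost the call, 49 gained it and 0 changed the sign of a called value; the causes were not tested. US and LPS libraries of a culture correlated in their deviations from the group means by 0.064 to 0.428 over 7 cultures. Among the LPS libraries of its genotype, each of these 7 US libraries correlated best with that of its own culture. This is a hint from the data only, since the pairing is not established by the labels. Library set was not taken out of the deviations, and its part was not tested. With culture as a replicate block, 28 members were called with LPS in each genotype and 7 between genotypes without LPS. Over all genes the calls with LPS in these fits were 10534 in Δ/+, against 9951 in the main fit, and 10973 in Δ/DN, against 10052. Between genotypes without LPS they were 2635, against 2184 in the main fit. The block between genotypes was fitted with limma voom in place of edgeR. Test and block thus changed together, and their parts cannot be told apart. The calls gained were, for LPS in Δ/+, Tnfrsf9 (0.42, adjusted p = 0.00238), Tnfrsf23 (−0.56, adjusted p = 0.00152), Tnfrsf26 (−0.65, adjusted p = 0.00101) and Ltb (−0.88, adjusted p = 0.0165); in Δ/DN, Tnfrsf9 (0.53, adjusted p = 0.000115), Tnfrsf23 (−0.36, adjusted p = 0.0118) and Tnfrsf13b (0.25, adjusted p = 0.0288); and between genotypes with LPS, Tnfrsf23 (−1.24, adjusted p = 0.0325) and Tnfsf11 (−2.67, adjusted p = 0.0285). Between genotypes without LPS, Lta (adjusted p = 0.258) and Tnfrsf13c (adjusted p = 0.188) were not called. RLE in place of TMM moved the median of all genes by under 0.1 on the log2 scale. For members with few reads, such as Tnfsf11, Tnfrsf13c, Cd70 and Tnfsf18 without LPS, depth limits what can be seen.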

Other observations

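Set side by side, ligands and their receptors showed several combinations with LPS. Tnfsf15 and Cd70 rose while the receptor genes Tnfrsf25 and Cd27 stayed under the read minimum. Tnfsf8 and its receptor Tnfrsf8 rose together, as did Tnf and its receptors Tnfrsf1a and Tnfrsf1b, and Tnfsf12 and its receptor Tnfrsf12a fell together. Tnfsf4 and Tnfsf18 rose while their receptors Tnfrsf4 and Tnfrsf18 were lower with LPS, called in 1 genotype each. Tnfsf14 fell while its receptor Tnfrsf14 rose. Of 11 pairs of members with no coding gene between them in RefSeq, both moved one way in some (Tnf and Lta, Tnfsf15 and Tnfsf8, Tnfrsf1b and Tnfrsf8, Tnfsf12 and Tnfsf13, Tnfsf9 and Cd70, Tnfsf4 and Tnfsf18), while Cd70 and Tnfsf14 moved in opposite directions. No test of partners or neighbours was made.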
